A study of Homo sapiens with 4 samples.

Results

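The genes described here were the small nuclear RNA (snRNA), small nucleolar RNA (snoRNA) and small Cajal body RNA (scaRNA) genes detected in polyadenylated RNA from TXNDC9 wild-type and knockout cells. They were the rows of the expression table whose symbol starts with SNORA, SNORD, SCARNA, RNVU1 or RNU, and they were chosen by their own FPKM (fragments mapped to a gene, scaled by its length and by the library's mapped fragments): at least 1 of 4 libraries had to be above 1 FPKM. This left 22 genes of the 2669 rows with such a symbol and of 57979 rows in all. The 4 libraries were 2 of wild-type cells and 2 of cells in which TXNDC9, a thioredoxin domain protein that works with the CCT chaperonin, had been targeted by CRISPR-Cas9 with lentiCRISPRv2 guides against its first exon, in infected cells that the study sorted and does not describe as 1 clone. Both groups were human cells labelled HepG2, a hepatoblastoma-derived liver line, kept in DMEM with 10% serum, and both went through capture on poly(A) beads before sequencing. Nothing in the labels says that the 2 replicates of a group were separate cultures or clones, so the p-values measure only the spread between these libraries. TXNDC9 itself stood at 35.1 and 37.3 FPKM in wild type and at 21.9 and 27.6 FPKM in knockout, so that both knockout libraries were lower and neither had lost the transcript.

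All 12 hepatocyte lineage markers examined, among them ALB, AFP, APOA1 and HNF4A, were at or under 0.449 FPKM in every library, which goes against the label HepG2. The cells are therefore called here only the cells labelled HepG2. Blood and immune markers reached 0.638 FPKM. Of 3 endothelial markers CDH5 was the 1 above 1 FPKM in any library, and it was higher in knockout (4.26 and 3.14 FPKM) than in wild type (0.751 and 1.07 FPKM). Of 3 fibroblast markers COL1A1 was the 1 above 1 FPKM in every library, at 31.5 and 22.8 FPKM in wild type and at 20.7 and 17.5 FPKM in knockout, while COL1A2 was listed at 0. What part these markers had in the values below was not tested. The libraries correlated at 0.976 within wild type, at 0.980 within knockout and at 0.859 to 0.897 between the groups (Pearson's r on log2 values across 13246 rows, which are not independent replicates).

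Spliceosomal snRNAs are the RNA cores of the particles that remove introns: U1 pairs with the 5′ splice site through its 5′ end, U2 with the branch point, and U4, U5 and U6 join later. SnoRNAs guide the chemical modification of ribosomal RNA in the nucleolus, box C/D RNAs (SNORD) for ribose methylation and box H/ACA RNAs (SNORA) for pseudouridylation, and scaRNAs do the same for snRNAs in Cajal bodies. Most human snoRNAs are cut out of the introns of host genes, and mature snRNAs and snoRNAs carry no poly(A) tail, so that a poly(A) library is not made to capture them.

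The U1 rows are shown first, because the single gene called higher in the knockout was a U1 variant. All are RNA-strand sequences from GENCODE 44 on hg38, from RNU1-1 (chr1:16514122-16514285, minus strand), the canonical U1 gene, RNVU1-15 (chr1:144412576-144412740, plus strand, with no host gene), RNU1-67P (chrX:119423742-119423905, plus strand, inside an intron of SLC25A43) and RNU1-139P (chr21:19345148-19345312, plus strand). In RNU1-1 the capitals mark bases 3 to 11, which hold the letters that pair with the 5′ splice site, and in the others they mark bases that differ from RNU1-1 in a pairwise alignment.
RNU1-1: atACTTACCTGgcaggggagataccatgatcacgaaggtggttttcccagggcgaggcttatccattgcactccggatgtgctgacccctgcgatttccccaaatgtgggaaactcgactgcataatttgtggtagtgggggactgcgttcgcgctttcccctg
RNVU1-15: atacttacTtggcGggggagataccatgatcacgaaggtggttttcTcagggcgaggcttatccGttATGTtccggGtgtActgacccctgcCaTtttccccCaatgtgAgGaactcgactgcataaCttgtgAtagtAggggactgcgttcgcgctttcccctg
RNU1-67P: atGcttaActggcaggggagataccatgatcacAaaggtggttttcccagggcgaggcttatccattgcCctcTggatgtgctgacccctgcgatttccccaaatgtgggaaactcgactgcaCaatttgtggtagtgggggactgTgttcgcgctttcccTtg
RNU1-139P: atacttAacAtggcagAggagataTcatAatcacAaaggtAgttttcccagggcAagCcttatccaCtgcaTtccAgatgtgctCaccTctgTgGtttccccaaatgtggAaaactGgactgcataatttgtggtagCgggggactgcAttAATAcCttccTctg
RNVU1-15 was 89.1% identical to RNU1-1, RNU1-67P 95.1% and RNU1-139P 84.2%. The letters ACTTACCTG stood at bases 3 to 11 in 48 of 143 annotated U1 genes and pseudogenes (33.6%) and in none of these 3, while the other detected U1 row, RNU1-106P (91.5% identical to RNU1-1), kept them. No other annotated U1 gene was more than 89.1% identical to RNVU1-15, whereas RNU1-67P had 8 others at 95% or more. All 8 genes with exactly the sequence of RNU1-1 were rows of the table, and all 8 were listed at 0 in every library.

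Of the U3 rows SNORD3A and SNORD3B-1 were detected, and their sequences show how alike they are. U3 is a box C/D RNA needed for cleavage of the ribosomal RNA precursor rather than for its methylation. The first 218 bases of SNORD3A (chr17:19188016-19188233, plus strand) and SNORD3B-1 (chr17:19061912-19062129, plus strand), the length of the U3 gene SNORD3D, are given with the bases that differ in capitals.
SNORD3A: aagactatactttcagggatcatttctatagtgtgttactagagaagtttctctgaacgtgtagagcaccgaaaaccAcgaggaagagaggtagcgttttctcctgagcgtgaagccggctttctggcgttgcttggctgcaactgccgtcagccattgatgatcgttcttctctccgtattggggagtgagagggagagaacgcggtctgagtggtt
SNORD3B-1: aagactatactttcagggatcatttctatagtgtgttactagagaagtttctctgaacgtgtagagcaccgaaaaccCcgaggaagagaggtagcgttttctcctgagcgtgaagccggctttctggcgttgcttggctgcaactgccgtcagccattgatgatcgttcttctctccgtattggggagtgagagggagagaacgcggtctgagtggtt
The 2 stretches differed at 1 base of 218, and over the 699 bases of SNORD3A the 2 genes were 98.4% identical. How reads that fit both genes were divided is not given in the sources used here, so the values of the 2 rows are uncertain.

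The 3 other guide RNAs above 0 in every library are shown because their levels can be compared between the groups without a value of 0. SNORD17 (chr20:17962710-17962946, minus strand, inside an intron of SNX5) has its C box letters TGATGA and D box letters CTGA in capitals. SNORA73B (chr1:28508559-28508762, plus strand, inside introns of SNHG3 and RCC1) has its last ACA in capitals, and SCARNA12 (chr12:6967337-6967606, minus strand, inside PHB2 and touching an exon of it) has each TGAG, the letters of the Cajal body box.
SNORD17: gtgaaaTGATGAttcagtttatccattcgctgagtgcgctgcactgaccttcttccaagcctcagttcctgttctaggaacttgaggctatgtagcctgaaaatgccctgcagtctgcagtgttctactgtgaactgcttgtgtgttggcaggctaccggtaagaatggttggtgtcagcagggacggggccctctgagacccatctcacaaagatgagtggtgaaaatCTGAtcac
SNORA73B: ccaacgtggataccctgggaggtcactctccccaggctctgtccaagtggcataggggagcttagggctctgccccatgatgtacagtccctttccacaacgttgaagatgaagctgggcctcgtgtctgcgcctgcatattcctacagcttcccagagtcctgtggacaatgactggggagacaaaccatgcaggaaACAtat
SCARNA12: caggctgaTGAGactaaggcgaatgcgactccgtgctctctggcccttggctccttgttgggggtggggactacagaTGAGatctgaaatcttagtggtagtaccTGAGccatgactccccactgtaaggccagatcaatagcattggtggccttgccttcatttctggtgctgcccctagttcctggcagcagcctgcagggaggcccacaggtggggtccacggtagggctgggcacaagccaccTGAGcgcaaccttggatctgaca
Searched on the RNA strand only, TGATGA stood in the first 20 bases of 65.3% of 314 annotated SNORD transcripts, 0.467% of 214 SNORA transcripts and 20% of 25 SCARNA transcripts, and SNORD17 and SCARNA12 held it there. ACA stood in the last 10 bases of 82.2% of SNORA, 6.05% of SNORD and 72% of SCARNA transcripts, and among the 6 detected SNORA genes it stood there in SNORA73B, SNORA74A, SNORA74B and SNORA53. TGAG stood in 72% of SCARNA, 42.5% of SNORA and 84.4% of SNORD transcripts, so these letters alone do not set scaRNAs apart.

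Detection was rare among these genes and went with length. Of the 2669 rows, 2639 (98.9%) were listed at 0 in every library, 30 were above 0, and the 22 detected genes were 0.824% of the rows, against 26.04% of the other 55310 rows above 1 FPKM. By class, 6 of 420 SNORA, 3 of 370 SNORD, 5 of 57 SCARNA, 1 of 12 RNVU1 and 7 of 1810 RNU rows were detected. All 2467 rows with an annotated transcript of 160 nt or shorter were listed at 0, whereas 22 of 200 longer rows (11%) were detected. The same length split held in the other rows, of which 10 of 4003 were above 1 FPKM at 160 nt or shorter (0.250%) and 28.3% of 50265 were above it when longer. From 160 to 200 nt, which held 163 of the 200 longer rows, 7 were detected (4.29%, against 5.83% of other rows). From 200 to 250 nt 7 of 19 rows with these symbols were detected (36.8%, against 6.60% of other rows), and from 250 to 300 nt 3 of 5 were (60%, against 4.84%). The detected genes ran from 164 to 758 nt with a median of 233.5 nt, and the median of the remaining rows was 107 nt. The longest run of A in a detected gene had a median of 3.5 bases, beside 3 bases in the 178 rows over 160 nt that were not detected.

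**Figure D1:**
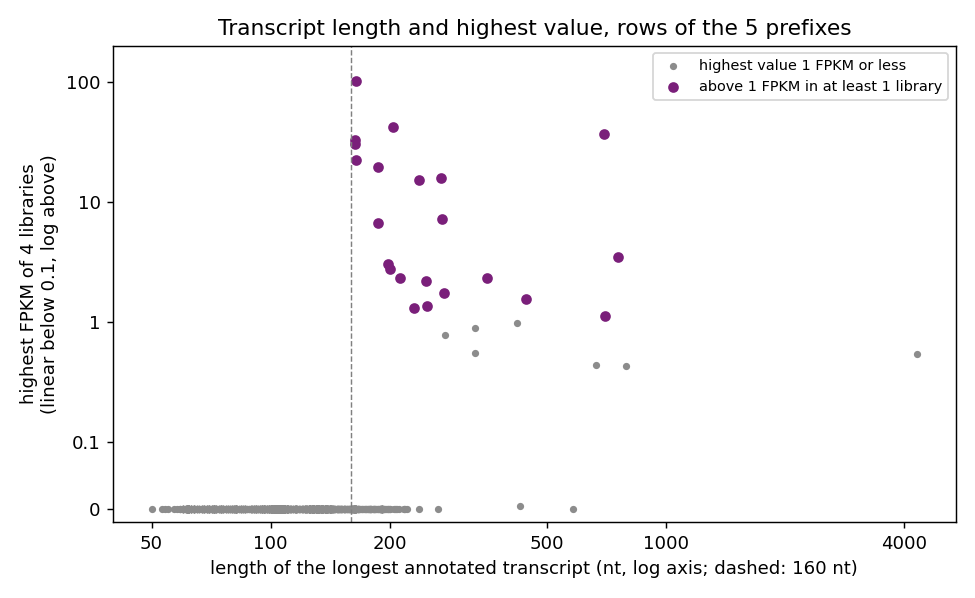
Length of the longest annotated transcript (nt, log axis) against the highest FPKM of the 4 libraries (linear below 0.1, logarithmic above) for each row whose symbol starts with 1 of the 5 prefixes and that has a GENCODE 44 length. Purple points are the 22 detected genes, grey points the rest, and every point left of the dashed line at 160 nt lies at 0.

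The canonical spliceosomal genes were among the rows at 0. RNU2-1, RNU4-1, RNU5A-1, RNU6-1 and RNU7-1 were listed at 0 in all libraries, as were 20 of 21 rows of U2, U4, U5, U6, U7 and minor spliceosome genes and 128 of 132 U1 rows, although every cell uses these RNAs. For that reason a value of 0 is described here only as listed at 0. Of 48 rows of well-known guide RNAs, 34 were listed at 0, 6 were above 0 without passing 1 FPKM and 8 were detected. The 3 rows nearest the threshold inside it were SNORA59B with a highest value of 1.12 FPKM, RNU4-25P with 1.31 and SNORA53 with 1.36, and the 3 nearest outside it were SCARNA2 (ENSG00000278249) with 0.991, SCARNA10 (ENSG00000239002) with 0.893 and SCARNA5 with 0.782.

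Most detected genes were seen in few libraries. Of the 22, 11 (50%) were above 1 FPKM in 1 library, 5 in 2, 2 in 3 and 4 (18.2%) in all 4 libraries, whereas 82.9% of the other 14403 detected rows were above it in all 4 and 5.93% in 1. The 11 fell on wild-type replicate 1 in 3 cases, on wild-type replicate 2 in 1, on knockout replicate 1 in 1 and on knockout replicate 2 in 6. Replicates often disagreed on whether a gene was listed at 0. In 7 of the 13 genes with a wild-type value above 1 FPKM, and in 7 of the 17 with such a knockout value, the other replicate was listed at 0, compared with 91 of 13378 and 101 of 13616 other rows. The genes listed at 0 numbered 9 and 12 in the wild-type libraries and 8 and 6 in the knockout libraries. The summed FPKM of the 22 genes was 92.8 and 111 in wild type and 168 and 269 in knockout, or 0.0115%, 0.0115%, 0.0314% and 0.0474% of the sum over all rows. RNVU1-15 alone gave 53.3 and 102 FPKM of the sums of the 22 genes in knockout and was listed at 0 in wild type. Since the 22 genes were chosen on these same values, their sums describe the libraries and test nothing. The sums over all rows were themselves lower in knockout (535973 and 568279 FPKM) than in wild type (805816 and 971102 FPKM). In such bulk libraries fewer cells of a type and less RNA per cell cannot be told apart.

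**Figure D2:**
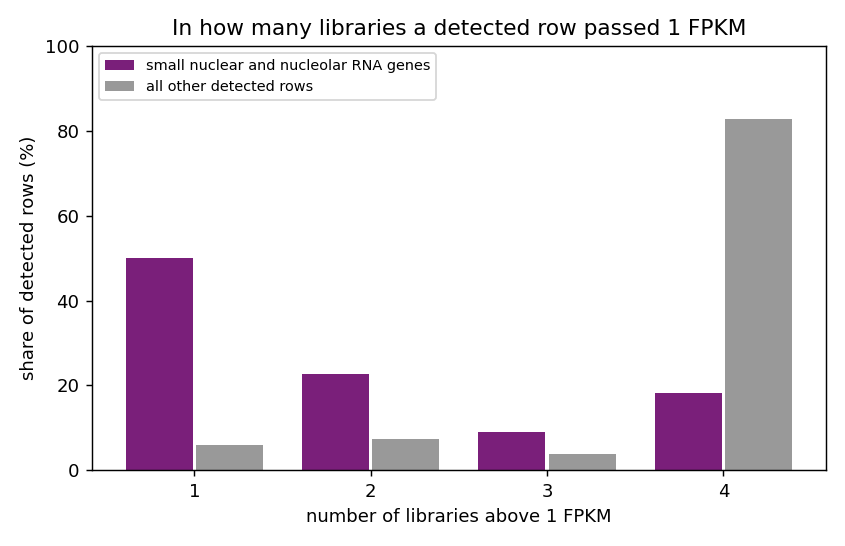
Share of detected rows (%) by the number of libraries in which they were above 1 FPKM, for the 22 small nuclear and nucleolar RNA genes (purple) and the 14403 other detected rows (grey). Of the small RNA genes 50% passed in 1 library and 18.2% in all 4, against 5.93% and 82.9% of the other rows.

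The knockout was then compared with wild type in a limma fit on log2(FPKM + 0.1) over all 13246 rows with a mean above 1 FPKM, with Benjamini-Hochberg adjustment over all of them. Calls needed both an adjusted p under 0.01 and at least a 2-fold change. Of the 22 genes 14 entered the fit, and 8 had a mean too low for it. SNORD3B-1 was called lower and RNVU1-15 higher, 12 were not called, and over all tested rows 15.3% were called lower and 14.2% higher. Both knockout values lay above both wild-type values in 5 of the 14 genes (40.1% of all tested rows) and below them in 2 (45.9% of all tested rows), and the groups overlapped in 7. The median fitted difference of the 14 genes was 0.78 (log2), beside −0.09 over all tested rows, with a median standard error (SE) of 1.06 beside 0.14. Because the genes were chosen on these same values and 8 of the 14 were listed at 0 in at least 1 library, these counts and the median describe the genes and test nothing. Rescaling each library to a common sum (the TPM scale) moved the median of all rows by 0.67, from −0.09 to 0.59, and of the named genes tested only SCARNA12 changed its direction with it.

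**Figure D3:**
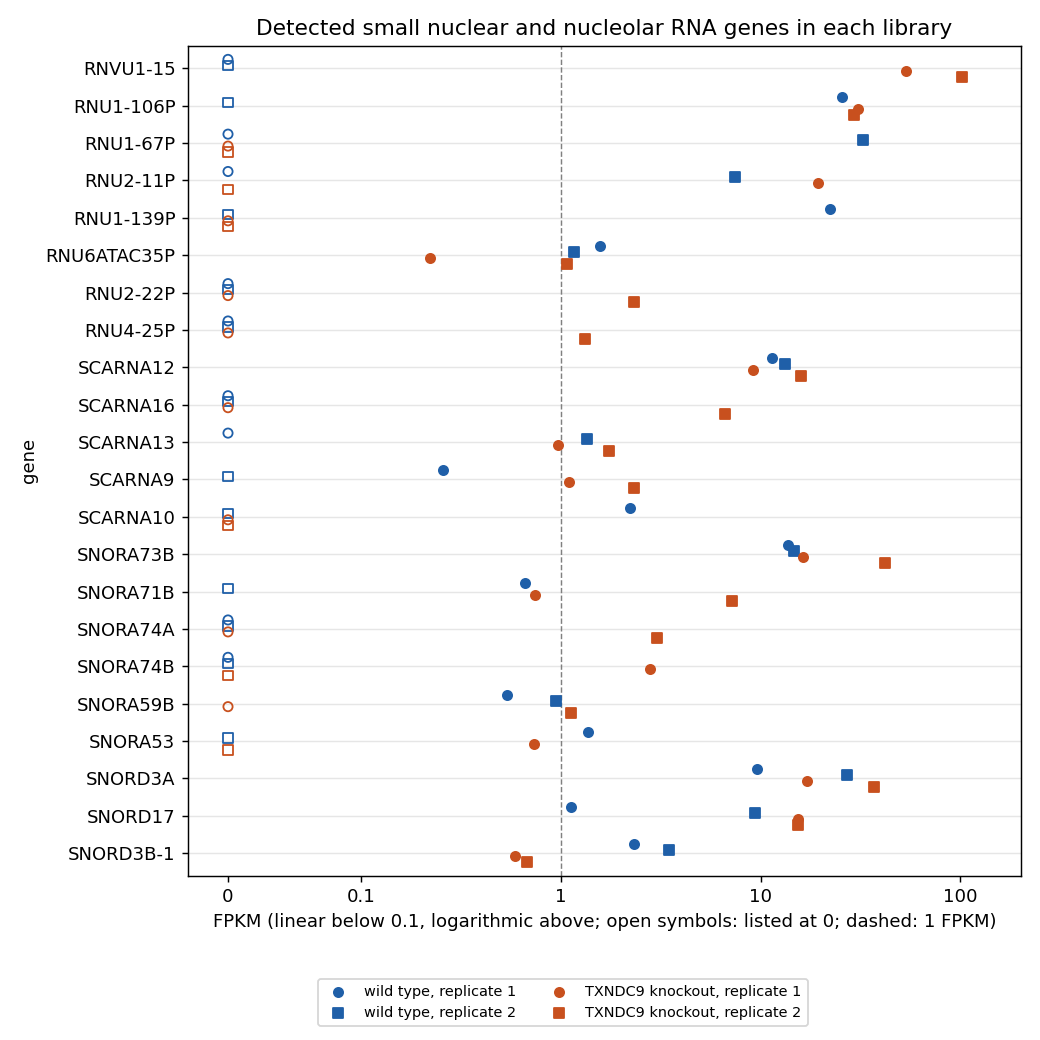
FPKM of the 22 genes in each library (linear below 0.1, logarithmic above), grouped by class and ordered by mean within it. Circles are replicate 1 and squares replicate 2, blue is wild type and orange is TXNDC9 knockout, open symbols are listed at 0, and the dashed line is 1 FPKM. RNVU1-15 is above 0 in the knockout libraries alone, and SNORD3B-1 is lower in both knockout libraries than in both wild-type libraries.

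Among the snRNA genes, RNVU1-15 (ENSG00000207205) had the highest level of all. Neither wild-type library held it (listed at 0 in each), and it stood at 53.3 and 102 FPKM in the knockout libraries, so the groups did not overlap. It passed the threshold of 1 FPKM and the filter of the fit through the knockout libraries alone, and its SE of 0.32, beside a median of 1.06 over the 14 genes, rests on 2 wild-type values that are both listed at 0. Its call (adjusted p = 4.86e-04, limma) is therefore given as a description of these libraries, and no fold change is given against a group listed at 0. Among all 74 rows of 164 or 165 nt, the lengths of the detected U1 genes, 6 rows were above 0, 4 of them these genes. Their 9 values above 0 ran from 22.3 to 102 FPKM. A wider range, the 246 rows of 160 to 170 nt, did hold low values. Its lowest value above 0 was 1.52 FPKM (wild-type replicate 1), 32.7 (wild-type replicate 2), 2.31 (knockout replicate 1) and 4.30 (knockout replicate 2). No floor is therefore drawn from the narrower range. How many fragments lay behind 53.3 or 102 FPKM is unknown, since the files hold no counts. Leaving out either knockout library ended the call, as it did in every row.

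The other U1 rows did not separate the groups in this way. RNU1-106P (named RNVU1-32 in GENCODE 44), a variant U1 gene, stood at 25.7 and 0 FPKM in wild type and at 30.7 and 29.3 FPKM in knockout. Its 2 knockout values were above both wild-type values, but the wild-type replicates lay further apart than the groups, and the adjusted p was 0.163 (limma). RNU1-106P lies inside PVT1 on the same strand and touches an exon of it, so reads of the 2 cannot be told apart. PVT1 stood at 107 and 126 FPKM in wild type and at 63.4 and 73.0 FPKM in knockout. RNU1-67P, a U1 pseudogene, stood at 0 and 32.7 FPKM in wild type and was listed at 0 in both knockout libraries. RNU1-139P, another, stood at 22.3 and 0 FPKM in wild type and was likewise listed at 0 in knockout. Each of these pseudogenes was thus carried by 1 wild-type library, with adjusted p of 0.196 and 0.200.

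The remaining RNU rows were pseudogene copies of other snRNAs. RNU2-11P (chr3:195928589-195928775), 74.0% identical to RNU2-1, stood at 0 and 7.41 FPKM in wild type and at 19.5 and 0 FPKM in knockout. In both groups 1 replicate was listed at 0 and the other was not, and the adjusted p was 0.846. RNU2-22P (chr2:231501990-231502201), 62.7% identical to RNU2-1, was at 2.31 FPKM in knockout replicate 2 and listed at 0 elsewhere, and RNU4-25P, a longer row 53.5% identical to RNU4-1 with gaps counted, was at 1.31 FPKM in that library and listed at 0 elsewhere. RNU6ATAC35P (chr1:220825620-220826063), which GENCODE 44 annotates as a long noncoding RNA of 444 nt, stood at 1.57 and 1.16 FPKM in wild type and at 0.220 and 1.08 FPKM in knockout. Its means were 1.36 ± 0.289 and 0.648 ± 0.604 FPKM (SD, n = 2 each). Both knockout values were below both wild-type values, and the difference of −1.24 (log2, SE 0.67) was not called (adjusted p = 0.147, limma).

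Of the SNORD genes 1 of 3, SNORD3B-1, was called, as lower. SNORD3A, a U3 gene, stood at 9.62 and 27.0 FPKM in wild type and at 17.1 and 37.0 FPKM in knockout, so the groups overlapped. Its means were 18.3 ± 12.3 and 27.0 ± 14.1 FPKM (SD, n = 2 each), a log2 difference of 0.63 (SE 0.56, adjusted p = 0.348, limma). SNORD3B-1, the other detected U3 gene, stood at 2.33 and 3.47 FPKM in wild type and at 0.589 and 0.678 FPKM in knockout. It fell from 2.90 ± 0.811 to 0.633 ± 0.0631 FPKM, a log2 difference of −2.01 (SE 0.30, adjusted p = 0.00226, limma), and the groups did not overlap. SNORD3B-1 passed the threshold of 1 FPKM and the filter of the fit through the wild-type libraries alone. Its call is therefore given as a description of these libraries. The call was lost when no filter on low values was set (adjusted p = 0.0116) and, as in every row, when either knockout library was left out. Another copy, SNORD3B-2, did not pass the threshold, at 0.428 and 0.139 FPKM in wild type and at 0 and 0.174 FPKM in knockout, while SNORD3C and SNORD3D were listed at 0.

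SNORD17, a box C/D RNA that guides methylation of ribosomal RNA, stood at 1.13 and 9.36 FPKM in wild type and at 15.4 and 15.3 FPKM in knockout. The knockout replicates lay close together and above both wild-type values, which themselves lay far apart. The means were 5.24 ± 5.82 and 15.4 ± 0.0506 FPKM (SD, n = 2 each), a log2 difference of 2.18 (SE 0.88) that was not called (adjusted p = 0.0703, limma). It was called with the replicate number as a block (adjusted p = 0.00485), which is no paired design here, and without wild-type replicate 2, where the log2 difference was 3.66, beside 0.71 without wild-type replicate 1.

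Of the SNORA genes, SNORA73B was above 0 in every library. This H/ACA RNA of the U17 family, which takes part in cleavage of the ribosomal RNA precursor, stood at 13.8 and 14.7 FPKM in wild type and at 16.2 and 42.0 FPKM in knockout. The means were 14.2 ± 0.658 and 29.1 ± 18.3 FPKM (SD, n = 2 each), and the log2 difference of 0.87 (SE 0.42) was not called (adjusted p = 0.112, limma). The groups did not overlap, although knockout replicate 1 lay much nearer to wild type than to the other knockout replicate. On the TPM scale the log2 difference was 1.55 and was called (adjusted p = 0.00876, limma). On that scale 4380 of all 13246 rows were called higher, beside 1885 on the FPKM scale. Without knockout replicate 2 the log2 difference was 0.19 on the FPKM scale. Its paralog SNORA73A, to which it is 93.2% identical, was listed at 0 in every library.

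SNORA71B (chr20:38425083-38425354, in SNHG17) stood at 0.661 and 0 FPKM in wild type and at 0.743 and 7.21 FPKM in knockout, with an adjusted p of 0.0779. Here too knockout replicate 2 held the high value. SNORA74A (chr5:139278781-139278978, in SNHG4 and MATR3) was at 3.03 FPKM in knockout replicate 2 and listed at 0 elsewhere, and SNORA74B (chr5:173020728-173020928, in ATP6V0E1), 67.0% identical to it, was at 2.79 FPKM in knockout replicate 1 and listed at 0 elsewhere. SNORA53 (chr12:98599635-98599883, in SLC25A3) stood at 1.36 and 0 FPKM in wild type and at 0.731 and 0 FPKM in knockout. SNORA59B (chr17:19557211-19557911, in SLC47A1) stood at 0.535 and 0.948 FPKM in wild type and at 0 and 1.12 FPKM in knockout. In the latter 2 genes and in the SNORA74 pair, the groups overlapped, and all 4 means were too low for the fit.

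The scaRNA genes gave no call. SCARNA12 stood at 11.4 and 13.3 FPKM in wild type and at 9.19 and 16.0 FPKM in knockout, so that both wild-type values lay between the knockout values. Its means were 12.3 ± 1.28 and 12.6 ± 4.80 FPKM (SD, n = 2 each), and the log2 difference of −0.02 (SE 0.26, adjusted p = 0.944, limma) became 0.65 on the TPM scale. SCARNA13 (chr14:95533355-95533629), inside an exon of SNHG10, stood at 0 and 1.36 FPKM in wild type and at 0.971 and 1.75 FPKM in knockout (adjusted p = 0.224). It overlaps GLRX5 on the opposite strand, and since the use of strand in counting is not given, reads of the 2 cannot be told apart.

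SCARNA16 (ENSG00000275143, chr17:77089307-77089493, in SNHG20) was at 6.64 FPKM in knockout replicate 2 and listed at 0 elsewhere, with an adjusted p of 0.232. SCARNA9 (chr11:93721513-93721865, in CEP295) stood at 0.257 and 0 FPKM in wild type and at 1.10 and 2.31 FPKM in knockout. Its groups did not overlap, but its mean was too low for the fit. SCARNA10 (ENSG00000276232, chr12:6510275-6510522), an unnamed long noncoding RNA in GENCODE 44 that lies inside the scaRNA gene SCARNA10 and NCAPD2, was at 2.22 FPKM in wild-type replicate 1 and listed at 0 elsewhere. The scaRNA row of that symbol was the one under the threshold given above.

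Position was not used to choose the genes, and most of them lay inside other genes. Of the 22, 16 had a host on the same strand in GENCODE 44, and 14 hosts had a row in the table, 5 of them snoRNA host genes (SNHG3, SNHG4, SNHG10, SNHG17 and SNHG20). The host was above its small RNA in every library in 13 of 14 pairs, the exception being RNU1-67P and SLC25A43. In the 14 pairs the small RNA touched no host exon in 9 and touched an exon in 5. These 5 were RNU1-106P in PVT1, SCARNA12 in PHB2, SCARNA13 in SNHG10, SCARNA16 in SNHG20 and SNORA53 in SLC25A3. There reads of the host and of the small RNA cannot be told apart.

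Where both were in the fit, the signs of small RNA and host depended in part on the scale. In 8 pairs, 2 had the same sign and 6 the opposite sign on the FPKM scale, and 3 the same and 5 the opposite on the TPM scale. Pearson's r across the 8 pairs was −0.52 (FPKM) and −0.54 (TPM) and Spearman's rho −0.33 on both, given as a description of pairs that share libraries. In most of these pairs the small RNA was listed at 0 in some library, so the size of its difference depended on the pseudocount. For SNORA71B it was 3.17 with 0.1 FPKM, 1.55 with 1 FPKM and 4.83 with 0.01 FPKM. The small RNAs were also chosen on these same values, so the signs and coefficients test nothing. All 8 hosts were below 0 on the FPKM scale, and 4 of them were above 0 on the TPM scale (SNHG3, SNHG20, SNX5 and SLC25A43). SNHG3 stood at 120 and 120 FPKM in wild type and at 80.7 and 82.2 FPKM in knockout, a log2 difference of −0.55 that became 0.13 on the TPM scale, beside 0.87 and 1.55 for SNORA73B inside it. SNHG17 stood at 71.6 and 99.5 FPKM in wild type and at 27.8 and 28.7 FPKM in knockout, and was called lower (log2 difference −1.58), while SNORA71B was highest in knockout replicate 2. SNX5 stood at 102 and 113 FPKM in wild type and at 77.8 and 80.7 FPKM in knockout, a log2 difference of −0.44 that became 0.24 on the TPM scale, beside 2.18 and 2.87 for SNORD17. Over all 14 hosts 2 were called lower (14.3%, beside 15.3% of all rows: SNHG17 and ATP6V0E1, the latter with a log2 difference of −1.11) and 1 higher (7.14%, beside 14.2% of all rows), shares near or under those of all rows. The host called higher, SNHG4, stood at 10.2 and 3.49 FPKM in wild type and at 31.1 and 30.4 FPKM in knockout (log2 difference 2.34). Its small RNA SNORA74A was above 0 in 1 of these 2 knockout libraries.

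The genes whose products transcribe, process and carry these RNAs were all detected, and many were lower in the knockout. Over 8 lists with 104 genes, each above 1 FPKM in at least 1 library and all tested, 30 were called lower (28.8% of them, beside 15.3% of all rows) and 5 higher (4.81%, beside 14.2%), with a median log2 difference of −0.57 that became 0.11 on the TPM scale. The medians of all tested rows were −0.09 on the FPKM scale and 0.59 on the TPM scale. On the TPM scale all 30 stayed below 0, and 2 of them (SNRPD1 and C12orf45) were still at least 2-fold lower. All 5 called higher were at least 2-fold higher there. These TPM counts use the fold change alone. Over all rows 447 were called lower and 4380 higher on the TPM scale, beside 2021 and 1885 on the FPKM scale. These lists were written with earlier results of these data known, so the counts are a description.

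Of the box C/D core, 4 of 5 genes were called lower: the methyltransferase FBL (log2 difference −1.60), the U3 protein RRP9 (−1.67), SNU13 (−1.16) and NOP56 (−1.08). FBL stood at 371 and 515 FPKM in wild type and at 135 and 154 FPKM in knockout. Of the box H/ACA core 2 of 4 were called lower, NOP10 (log2 difference −1.35) and GAR1 (−1.13). The core genes not called were also below 0: NOP58 (log2 difference −0.58), NHP2 (−0.96) and DKC1 (−0.23). The median of both core lists stayed below 0 on the TPM scale (−0.48 and −0.37). Of the 12 snoRNP assembly genes 3 were called lower (RUVBL2, PIH1D1 and C12orf45) and none higher. The list's median was −0.43, beside −0.09 over all tested rows, and 0.25 on the TPM scale, beside 0.59 over all tested rows. Of the 2 Cajal body genes WRAP53, which brings scaRNAs to that body, was called lower (log2 difference −1.20). The other, COIL, was above 0 without a call (log2 difference 0.53).

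The Sm and LSm proteins, which form rings around snRNAs, had 11 of 16 genes called lower and 1 higher, with a median of −1.15 that was −0.47 on the TPM scale. SNRPD1 stood at 193 and 231 FPKM in wild type and at 44.95 and 48.8 FPKM in knockout (log2 difference −2.17, SE 0.13, adjusted p = 4.96e-04, limma). LSM11, part of the U7 particle, was the gene called higher (log2 difference 1.05), and its partner LSM10 fell (−1.32). Of 18 genes of snRNA export and Sm ring assembly 3 were called lower (SMN2, GEMIN6 and GEMIN7), and SMN2 shares its reads with the near-identical SMN1 and is uncertain.

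In the 24 genes of snRNA transcription and 3′ cleavage, calls went both ways, with SNAPC2 and the Integrator subunit INTS1 lower and POU2F1, ICE1 and INTS2 higher. POU2F1, which encodes the factor OCT1 that binds snRNA promoters, stood at 1.47 and 1.78 FPKM in wild type and at 4.12 and 4.10 FPKM in knockout. ICE1, a subunit of the little elongation complex that acts in the transcription of snRNA genes, stood at 10.4 and 9.28 FPKM in wild type and at 25.8 and 26.6 FPKM in knockout. Of 23 genes of trimming, adenylation and decay, 4 exosome subunits were called lower (EXOSC1, EXOSC4, EXOSC5 and EXOSC9). PAPD5, which adds short A tails to RNAs bound for trimming, was called higher (log2 difference 1.02). The other EXOSC genes were below 0 without a call, from −0.231 (EXOSC6) to −0.998 (EXOSC7). Over this list 16 genes were below 0 and 7 above. The medians of the transcription, export, Cajal body and decay lists were above 0 on the TPM scale (0.47, 0.08, 0.34 and 0.38). All of them were below the median of all tested rows on that scale, 0.59.

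**Figure D4:**
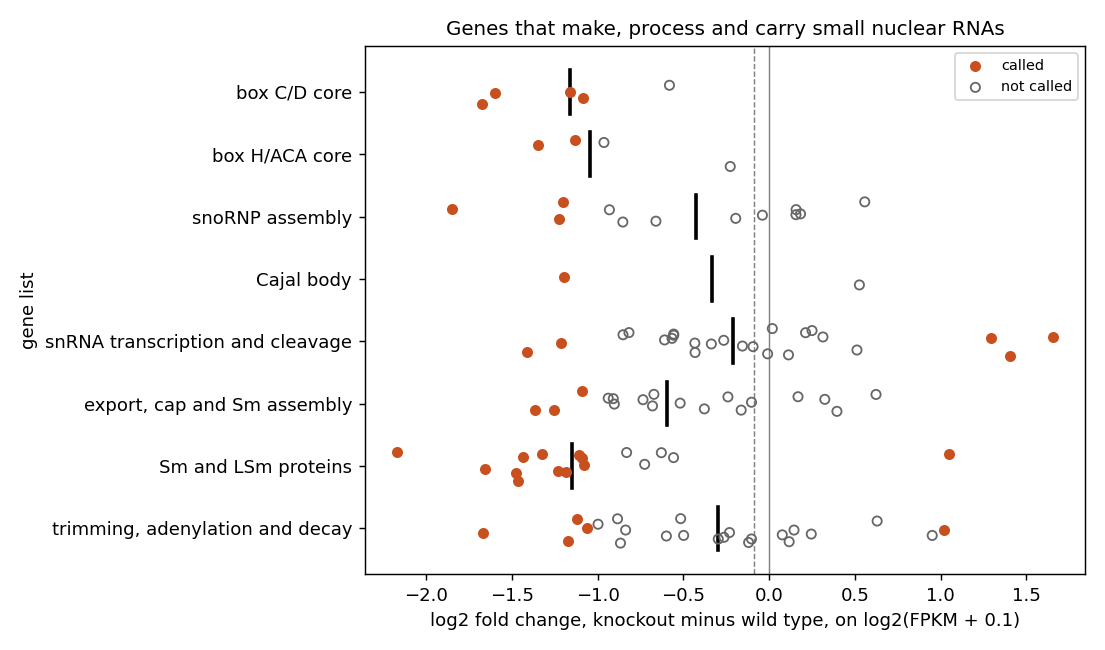
Log2 fold change, knockout minus wild type, of the tested genes of 8 lists that make, process and carry these RNAs, from the limma fit on log2(FPKM + 0.1). Filled points were called (adjusted p under 0.01 and at least 2-fold), open points were not, the black bar is the list's median and the dashed line the median of all tested rows, −0.09. The medians run from −1.16 (box C/D core) to −0.21 (transcription and cleavage). On the TPM scale those of the assembly, Cajal body, transcription, export and decay lists were above 0 and below the median of all tested rows, 0.59.

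Other abundant RNAs without a poly(A) tail were also represented unevenly in the libraries. Of 15 examined, 14 had a row, and over 18 rows 7 were listed at 0, all of them vault or Y RNAs. The signal recognition particle RNA RN7SL1 stood at 73.9 and 240 FPKM in wild type and at 215 and 143 FPKM in knockout, and RN7SL2 at 92.8 and 146 and at 186 and 130 FPKM, so that both overlapped between the groups. RN7SK (ENSG00000202198), which holds the elongation factor P-TEFb inactive, stood at 43.5 and 184 FPKM in wild type and at 5.99 and 6.91 FPKM in knockout, and fell by 3.78 on the log2 scale (adjusted p = 0.0032, limma). A second row of that symbol (ENSG00000283293) stood at 0.0029 and 7.93 FPKM in wild type and at 18.0 and 9.16 FPKM in knockout, against the direction of the first, and how reads were divided between the 2 rows is not given. The RN7SK row ENSG00000202198 was the 1 row called of the 8 tested. Whether the amount of RNA without a poly(A) tail in each library had a part in the values of the small RNA genes was not tested.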

How the data were processed

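RNA captured on poly(A) beads was sequenced in 4 libraries, and the authors mapped the reads with TopHat2 to hg38 with an Ensembl annotation, without new junctions, and deposited FPKM per gene and library from Cuffdiff (Cufflinks). Tool versions, how libraries were normalized and whether strand was used are not given in the sources used here. The deposited columns with condition averages, log2 fold changes, p-values and q-values were not used. Of 231916 lines 57979 held values. Each identifier occurred 4 times and stood out of register with the symbols, so they were realigned by order. Then 34949 of 56935 identifiers known to GENCODE 44 had the same symbol (1 before), and 20 of the 22 genes described. Lengths are those of the longest GENCODE 44 transcript, and sequences come from its transcript file.

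Values on log2(FPKM + 0.1) were fitted in limma 3.58.1 (R 4.3.3, prior variance trend on) over rows with a mean above 1 FPKM, with Benjamini-Hochberg adjustment. The limma script was tested on simulated data. Alternatives were another pseudocount, filter, scaling or threshold, the replicate number as a block and leaving out each library. Members and lists were chosen with earlier results of these data known. Genes named with values were detected spliceosomal snRNA genes, the 5 highest by mean in each class, the largest called changes, well-known guide RNAs and the 3 rows nearest the threshold on each side. The remaining detected genes, the hosts and the list genes quoted were chosen after their values were seen. Identities are from global pairwise alignment in Biopython 1.88.

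Depth is unknown: the FPKM steps of low rows gave no whole reads, since the commonest ratio between libraries was shared by at most 4.53% of them. No intervals or floors are therefore given.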

Additional observations from a re-analysis of the deposited data

How the results depend on the processing

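With 22 genes by the rule, a threshold of 5 FPKM left 11 and a mean above 1 FPKM left 14, and 0.5 FPKM gave 27. The number called lower, 1 as reported, was 0 with no filter and 0 with a mean above 5 FPKM, which SNORD3B-1 does not reach, and ran from 0 to 2 when a library was left out. The number called higher, 1 as reported, was 2 on the TPM scale and ran from 0 to 3 when a library was left out. The numbers called were 0 over all rows without either knockout library. With the replicate block 2 genes were called higher and 1 lower, and over all rows 2146 lower and 1960 higher, but same-numbered libraries did not deviate together (correlation −0.09), so the numbers are not pairs. The median log2 difference, 0.78 as reported, was 1.43 on the TPM scale, 1.38 with no filter and 0.62 with a pseudocount of 1 FPKM, and with a library left out it ran from −0.02 (wild-type replicate 1) to 1.37 (knockout replicate 1). Of 163 values of single genes under the alternatives, 7 were reversed, in 4 genes. SCARNA12 was 0.65 on the TPM scale. Without 1 library SCARNA12 ran from −0.42 to 0.37, RNU2-11P from −3.12 to 4.50, SCARNA13 from −0.049 (without wild-type replicate 1) to 3.81 and SNORD3A from −0.11 to 1.38. The cause of these changes was not tested. Depth limits every value near 0, since no counts are held.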
